A study of Mus musculus with 12 samples.

Results

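The arrays carried probes for 4607 lincRNA regions, counted by strand, which the array names by their mm9 coordinates and a suffix F or R for the strand. Of these, 2441 lay more than 20 kb from the position of every probe with an NM_ accession, the RefSeq prefix of protein-coding transcripts, and they are the regions described here. They held 8077 of the 16181 lincRNA probes. Chromosomes X and Y and short intervals of chromosomes 1, 2 and 16 were left out (192 strands), and 1974 strands within 20 kb of an NM_ probe served for comparison. The distance runs to the 60-base probes and not to gene ends, so a region counted as far can still lie close to an exon or a UTR that carries no probe. The 2441 strands belonged to 1926 distinct regions, of which 515 were probed on both strands. Their length ranged from 0.062 to 7128 kb (median 11.7 kb), their distance from 20.1 to 2082 kb (median 64.6 kb), and they held 1 to 10 probes each (median 3).

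RNA came from RAW264.7, an established mouse macrophage line, in 4 groups of 3 arrays. All cells received an siRNA for 24 h, either a non-specific control or one directed at lincRNA-Tnfaip3, and then spent a further 4 h without or with E. coli LPS at 1 µg/ml. The groups were therefore control siRNA, control siRNA with LPS, lincRNA siRNA, and lincRNA siRNA with LPS, and none was free of siRNA. The labels number the replicates but do not name separate cultures, so p-values measure the spread between these arrays, which may be technical. No probe was named for lincRNA-Tnfaip3, and 0 lincRNA regions lay within 500 kb of the Tnfaip3 probe at chr10:18720776-18720835 (the nearest was 616 kb away), so these values give no check of the knockdown.

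LincRNAs are transcripts longer than short regulatory RNAs, often spliced and polyadenylated, that arise outside protein-coding genes and are not known to be translated. Many are made at low levels and in few cell types, and their genes are often annotated from chromatin marks or transcript fragments, so a region on the array can hold 1 transcript, several, or none in a given cell. LPS, a cell wall component of Gram-negative bacteria, is sensed by TLR4 and acts in macrophages through NF-kB and, by way of IRF3 and secreted interferon beta, through STAT factors.

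The 60-base probes below stand for the regions on which the results turn, read from the deposited array files in the 5′ to 3′ direction. The first 5 shared no run of 16 or more bases with any probe of another feature and had the strongest or most even LPS changes. The sixth and seventh are printed because they resemble each other: capitals in the sixth mark 37 bases that also stand in the seventh, and capitals in the seventh mark 50 bases shared with the probe of ENSMUST00000115934. Capitals in the last mark 56 bases shared with the probe of ENSMUST00000112103.
chr1:85304494-85305390_R, probe at chr1:85305009-85305068: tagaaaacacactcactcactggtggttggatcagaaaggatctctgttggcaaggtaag
chr17:64063362-64066067_R, probe at chr17:64063469-64063528: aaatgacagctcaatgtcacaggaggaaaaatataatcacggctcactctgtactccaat
chr6:3283191-3284581_R, probe at chr6:3283192-3283251: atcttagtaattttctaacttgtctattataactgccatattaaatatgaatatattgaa
chr1:87348082-87409907_F, probe at chr1:87409439-87409498: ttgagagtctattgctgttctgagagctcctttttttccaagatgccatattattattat
chr7:16633756-16634410_F, probe at chr7:16634351-16634410: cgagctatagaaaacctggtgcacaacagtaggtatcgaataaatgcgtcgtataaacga
chr1:85117750-85129200_F, probe at chr1:85120161-85120220: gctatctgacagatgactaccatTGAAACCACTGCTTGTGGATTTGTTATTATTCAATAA
chr1:87343550-87362900_F, probe at chr1:87351659-87351718: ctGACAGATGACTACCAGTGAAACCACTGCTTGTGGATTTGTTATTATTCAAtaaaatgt
chr1:137503023-137625604_R, probe at chr1:137503113-137503172: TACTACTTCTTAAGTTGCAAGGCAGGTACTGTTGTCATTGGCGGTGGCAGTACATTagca
The third probe had 20% G and C, the lowest share among the 46 regions that rose with LPS (reached by 1 other, chr1:84961943-84962737_F). Their median was 43.3%, against 45% over all regions tested.

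The arrays lay on 3 slides that did not hold the groups evenly. Control-siRNA arrays 1 and 2 were alone on slide 1, the LPS-treated lincRNA-siRNA arrays 2 and 3 were alone on slide 3, and slide 2 carried 8 arrays from all 4 groups. Probes well above background numbered 27198 and 29462 on slide 1 and 32708 to 36367 on the other arrays, no spot was saturated, and arrays of a group correlated at 0.974 to 0.991. Of 11 macrophage markers, 10 were above background on all 12 arrays and Mrc1 on none. Among 2 markers each of other cell types, 5 were above background on all arrays (Cd3e, Cd79a, Elane, Zbtb46 and Pecam1), Epcam and Klrb1c on 0, and none passed the test for LPS. All 10 LPS response genes rose, with a median log2 change of 2.38, whereas 0 of 23 tested long noncoding RNAs known by name passed limma's test for LPS (1 at an unadjusted p under 0.05). These lists were chosen with earlier results of the data known.

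Far lincRNA regions were detected less often than near ones on every array: group means ran from 66.8% to 78% for the far regions, from 73.6% to 83.8% for the near ones, and from 67.1% to 72.9% for genes with NM_ probes. These kinds of feature differ in the number of probes each has, so their shares are not on 1 footing. A region counted as detected on an array if any of its probes was well above background by the scanner software's flag. Of the 2441 far regions, 217 (8.89%) were detected on no array and 1201 (49.2%) had a probe above background on all 12 arrays. Among the 515 regions probed on both strands, both strands were detected on all 12 arrays in 211, and in 32 one strand was detected on all 12 arrays and the other on none. The share that passed the filter for testing, a probe above background throughout the 3 arrays of some group, was lower farther out: 77.2% at 20 to 50 kb, 75.5% at 50 to 100 kb, 72.3% at 100 to 200 kb and 63.6% beyond 200 kb.

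The 3 control-siRNA arrays detected 58.2%, 64.7% and 77.6% of the far regions, where the first 2 values are from slide 1. The 3 arrays with control siRNA and LPS detected 78.2%, 80.5% and 75.3%. The lincRNA siRNA arrays detected 74.5%, 77.6% and 74.4% without LPS and 77.2%, 80.9% and 73.8% with LPS. The control-siRNA arrays on slide 1 were thus the lowest of the 12, and the control-siRNA array on slide 2 lay within the range of the other groups.

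**Figure D1:**
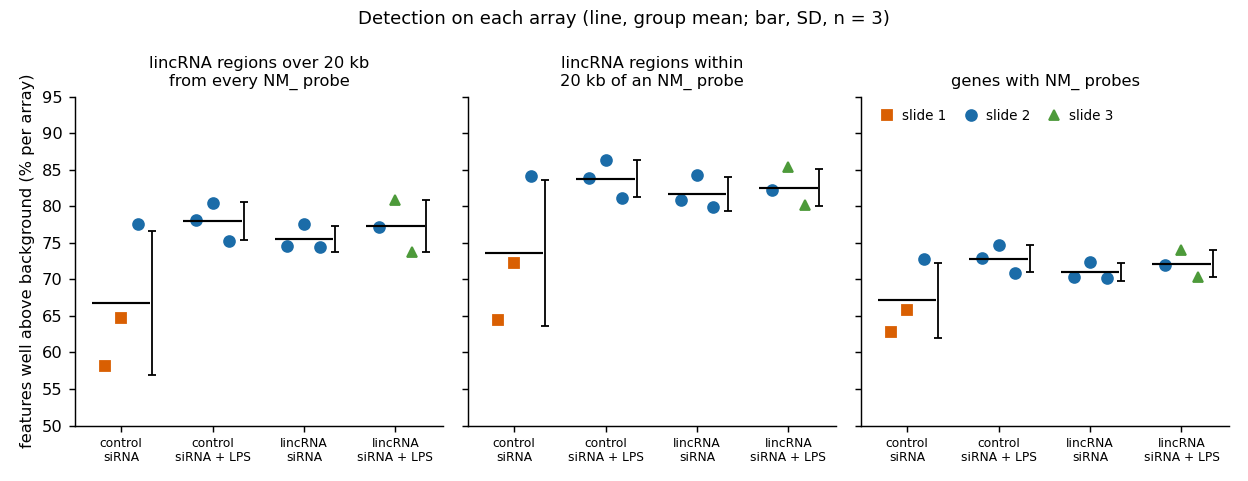
Share of features well above background on each array (%, vertical axis from 50%) for far lincRNA regions, near lincRNA regions and genes with NM_ probes, by group; symbols give the slide, lines the group mean and bars the SD (n = 3). The 2 slide 1 arrays, at 58.2% and 64.7% of far regions, sit below all others in each panel.

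The group means were 66.8% ± 9.87 (SD, n = 3) for control siRNA and 78% ± 2.62 with LPS, a difference of 11.2 percentage points (exact permutation test, two-sided, p = 0.2). Within slide 2 that difference was 0.38 points. Under the lincRNA siRNA the means were 75.5% ± 1.83 without and 77.3% ± 3.57 with LPS (difference 1.77 points, exact p = 0.7, and 1.67 within slide 2). Between siRNAs the lincRNA siRNA was 8.7 points above the control siRNA without LPS (exact p = 0.3) but the difference was -2.08 points within slide 2. With LPS it was -0.68 points (exact p = 0.8, and -0.79 within slide 2). With 3 arrays against 3 the smallest p this test can give is 0.1, and the groups overlapped in all 4 comparisons. Beside the 11.2 points of the far regions, near regions differed by 10.2 points and NM_ genes by 5.72 points between control-siRNA groups, with the same 2 slide 1 arrays lowest.

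Only 1 region was above background on all 6 arrays with LPS and on none of the 6 without, and 0 regions showed the reverse. It was chr18:63480341-63480899_R, 0.559 kb long and 211 kb from Piezo2, a mechanically gated ion channel whose probe was above background on 0 arrays. Its values, here and below as log2 signal minus the 75th percentile of the array, were -6.39, -6.76 and -6.01 with control siRNA, and -5.03, -5.10 and -4.70 once LPS was added. With the lincRNA siRNA they were -6.24, -5.88 and -7.00 without and -4.62, -4.25 and -4.55 with LPS. All 6 LPS arrays were above all 6 others, and the change averaged over siRNAs was 1.67 ± 0.20 (SE, adjusted p = 0.000685 in limma). Since it was below background without LPS, that change has a bound only, which was at least 1.56-fold under the lincRNA siRNA. The slide as a block gave 1.41 (adjusted p = 0.0521). In bulk RNA, fewer cells making a transcript and less of it per cell cannot be told apart, here and below. Its probe shared 51 bases with that of the enclosing region chr18:63455560-63548085_R, which changed by 1.73 (adjusted p = 0.0142), so these 2 are not separate observations.

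For the tests, each region was represented by its brightest kept probe, and 1807 of the 2441 regions (74%) passed the filter; 634 did not. Of the 2441, 161 passed through LPS groups only and 29 through groups without LPS only, so part of the tested set had to differ in the direction of its filter. Of the regions named below for a rise, chr18:63480341-63480899_R, chr18:63455560-63548085_R, chr1:84961943-84962737_F, chr4:63736566-63744848_R and chr7:50403100-50418175_F passed through LPS groups only, and their tests for a rise are not independent of it.

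LPS raised few far lincRNA regions, by up to 9.06-fold averaged over siRNAs. Averaged over both siRNAs, 46 of the 1807 regions rose and 10 fell at an adjusted p under 0.05 (2.55% and 0.553%). Of all 23890 features tested, 4.21% rose and 4.01% fell (8.22% in either direction), so both shares were below the background. The corresponding counts were 32 higher and 22 lower of 1581 near regions, and 715 higher and 799 lower of 13794 genes with NM_ probes. The regions that rose had log2 changes of 0.35 to 3.18 (median 1.27), 27 of them at least 1 and 6 at least 2; those that fell ranged from -0.26 to -1.61. The probe of 24 of the 46 was above background on all 12 arrays, and that of 14 had passed through LPS groups only. Over all tested regions the median LPS change was 0.18, beside 0.03 over all features.

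With control siRNA alone 33 far regions rose and 3 fell (1.83% and 0.166%), against 3.26% and 1.89% of all features (5.15% in either direction). With the lincRNA siRNA alone 13 rose and 2 fell (0.719% and 0.111%), against 1.51% and 0.347% (1.85% in either direction). These 2 comparisons share no arrays. They had 13 regions in common, all in the same direction, which is 36.1% of the 36 from control siRNA and 86.7% of the 15 from the lincRNA siRNA. Of the 36, 34 had the same sign under the lincRNA siRNA, and over all 1807 regions the 2 changes correlated at r = 0.306, a description across regions measured on the same arrays. The difference between the responses was the interaction, for which 0 regions passed limma's test (73 at an unadjusted p under 0.05, or 4.04% of the 1807, 15 higher and 58 lower; 0% of all features passed, and 3.75% had such an unadjusted p, 1.11% higher and 2.63% lower).

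**Figure D2:**
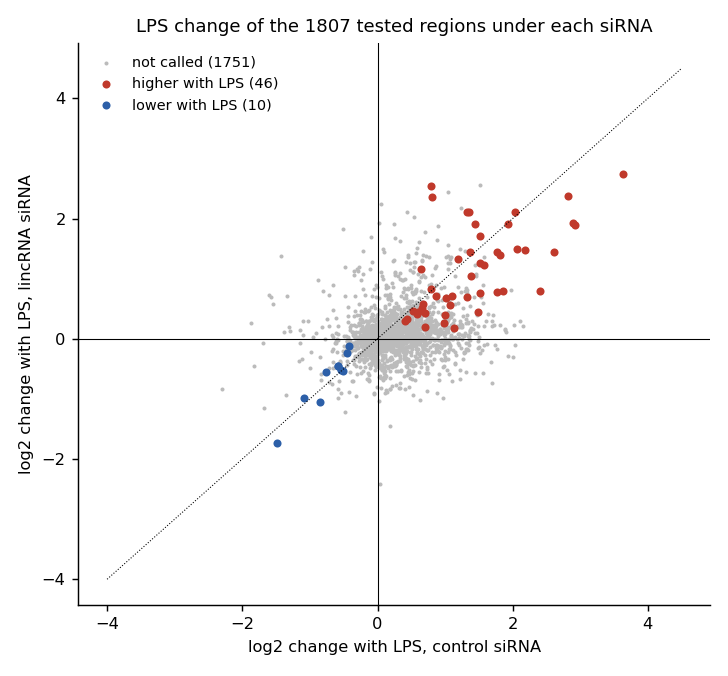
Log2 change with LPS in each of the 1807 tested far regions, under control siRNA (horizontal) and under the lincRNA siRNA (vertical); red, the 46 higher and blue, the 10 lower in the averaged comparison, and the dotted line marks equal change. The point farthest right and highest is the region 50.5 kb from C130026I21Rik, at 3.63 and 2.73.

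Both arrays of slide 1 had control siRNA, and on them the tested far regions were lower than on the control-siRNA array of slide 2 (median difference -0.25 log2 units, 68.3% of regions lower), against -0.19 for near regions and -0.07 for NM_ genes. With the slide as a block in the fit, 16 far regions passed in the averaged comparison (15 higher, 1 lower; 0.885%, beside 2.22% of all features). All 56 regions kept their direction, and 14 of them still passed. Slides 1 and 3 each held 1 group, so the block sets their arrays aside when it compares groups. The changes it gives are those of slide 2. There, control siRNA alone and the lincRNA siRNA with LPS have 1 array each. The block and slide 2 alone are thus not separate checks, and both compare fewer arrays. On slide 2 alone 14 passed (0.776%, beside 1.15% of all features), and without the slide 1 arrays 23 (21 higher, 2 lower; 1.27% beside 3.05%). For control siRNA alone the block left 10 regions (0.553% beside 0.975%) and slide 2 alone 2 (0.111% beside 0.176%), and the median change of the 1807 regions was 0.08 in both, down from 0.28. For the lincRNA siRNA the block left 8 (0.443% beside 0.661%) and slide 2 alone 2 (0.111% beside 0.189%). Single arrays also moved these counts: the 56 became 218 without control-siRNA array 3 (12.1%, beside 15.4% of all features), 37 without control-siRNA array 2 (2.05% beside 5.35%) and 33 without array 3 of control siRNA with LPS (1.83% beside 5.09%). The 36 became 296 (16.4% beside 16.6%), 18 (0.996% beside 2.36%) and 18 (0.996% beside 2.25%) in the same order, and 20 without either control-siRNA array 1 or array 2 of control siRNA with LPS (1.11% beside 2.45% in both). The 15 became 33 without lincRNA-siRNA array 3 (1.83% beside 1.97%).

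**Figure D3:**
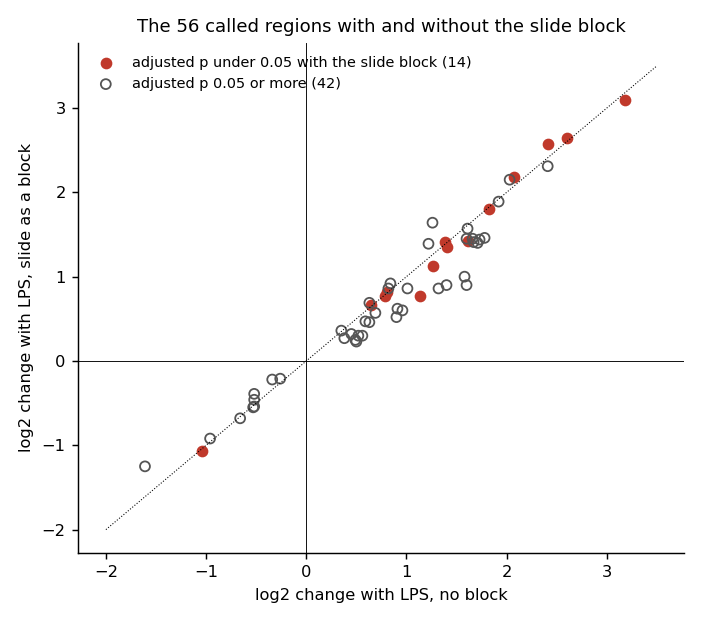
Log2 change with LPS, averaged over siRNAs, of the 56 far regions that passed the test, without (horizontal) and with (vertical) the slide as a block. Filled points are the 14 with an adjusted p under 0.05 under the block, and points near the dotted line changed little in size.

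The largest rise was at chr1:85304494-85305390_R, 0.897 kb long and 50.5 kb from C130026I21Rik. On the control-siRNA arrays it read -3.39, -3.79 and -3.33, and with LPS -0.71, 0.66 and 0.41. The lincRNA-siRNA arrays read -3.94, -1.98 and -2.24 without LPS and 0.03, -0.09 and 0.11 with LPS. Every LPS array was above every other array, and lincRNA-siRNA array 1 was well below arrays 2 and 3. The averaged change was 3.18 ± 0.35 (9.06-fold, adjusted p = 0.000372), 3.63 with control siRNA (12.3-fold, adjusted p = 0.00253) and 2.73 with the lincRNA siRNA (6.65-fold, adjusted p = 0.0217). All 3 of its probes rose, by 2.76 to 3.86. The averaged change also passed under the slide block (3.10, adjusted p = 0.0322) but not on slide 2 alone (3.10, adjusted p = 0.12). The features most like it over the 12 arrays were ENSMUST00000111210 (r = 0.994), Pml, the scaffold protein of nuclear bodies (r = 0.992), and Gm8995 (r = 0.992), which changed by 2.26, 1.73 and 2.85.

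The next was chr17:64063362-64066067_R, 2.71 kb long and 422 kb from Fer, a cytoplasmic tyrosine kinase that itself changed by 0.05 (adjusted p = 0.687). Its control-siRNA values were -4.90, -4.91 and -4.86, against -1.72, -2.21 and -2.31 with LPS. Its lincRNA-siRNA values were -4.79, -4.83 and -4.41, against -2.18, -2.26 and -2.45 with LPS. The arrays within a group lay close together, on slide 1 as on slide 2, and the groups with and without LPS were far apart. The averaged change was 2.60 ± 0.12 (6.05-fold, adjusted p = 1.95e-06), and 2.64 under the slide block (adjusted p = 0.000622). It was 2.81 with control siRNA (adjusted p = 2.48e-05) and 2.38 with the lincRNA siRNA (adjusted p = 0.000107). Only 1 of its 3 probes was kept. The features most like it were Trex1, a DNA exonuclease (r = 0.996), Hdc, which makes histamine (r = 0.994), and the chemokine Ccl5 (r = 0.994), which changed by 2.10, 4.17 and 3.17.

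At chr6:3283191-3284581_R the nearest coding probe, 37.8 kb away, belonged to Samd9l, an interferon-inducible antiviral gene that rose by 2.44 (adjusted p = 0.000203). The region read -3.58, -3.49 and -3.58 with control siRNA and -0.81, -0.58 and -0.58 with LPS. Arrays with the lincRNA siRNA read -3.36, -2.20 and -2.33, and -0.41, -0.87 and -0.84 with LPS. The LPS arrays did not overlap the others, and lincRNA-siRNA array 1 was again lower than arrays 2 and 3. The averaged change was 2.41 ± 0.19 (5.3-fold, adjusted p = 4.25e-05), its 2 probes gave 2.41 and 2.55, and the block left it passing (2.57, adjusted p = 0.00376).

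The smallest adjusted p of all far regions was at chr1:87348082-87409907_F, 61.8 kb long and 63.6 kb from Sp110, a nuclear body protein of the SP100 family. Its values were -0.56, -0.56 and -0.79 with control siRNA and 1.48, 1.40 and 1.31 with LPS. Under the lincRNA siRNA they were -0.95, -0.77 and -0.80 without and 1.34, 1.16 and 1.28 with LPS. The 6 arrays of each kind spanned less than the gap between them. The averaged change was 2.07 ± 0.07 (4.19-fold, adjusted p = 4.94e-07), nearly the same under control siRNA (2.03) and the lincRNA siRNA (2.10). It passed under the slide block (2.18, adjusted p = 9.38e-05), which gives the same change as slide 2 alone. It rests on 1 probe. The nearest Sp110 probe rose by 1.25 (adjusted p = 4.68e-05), whereas the brightest probe of Sp110, which stood for that gene, gave 0.05.

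**Figure D4:**
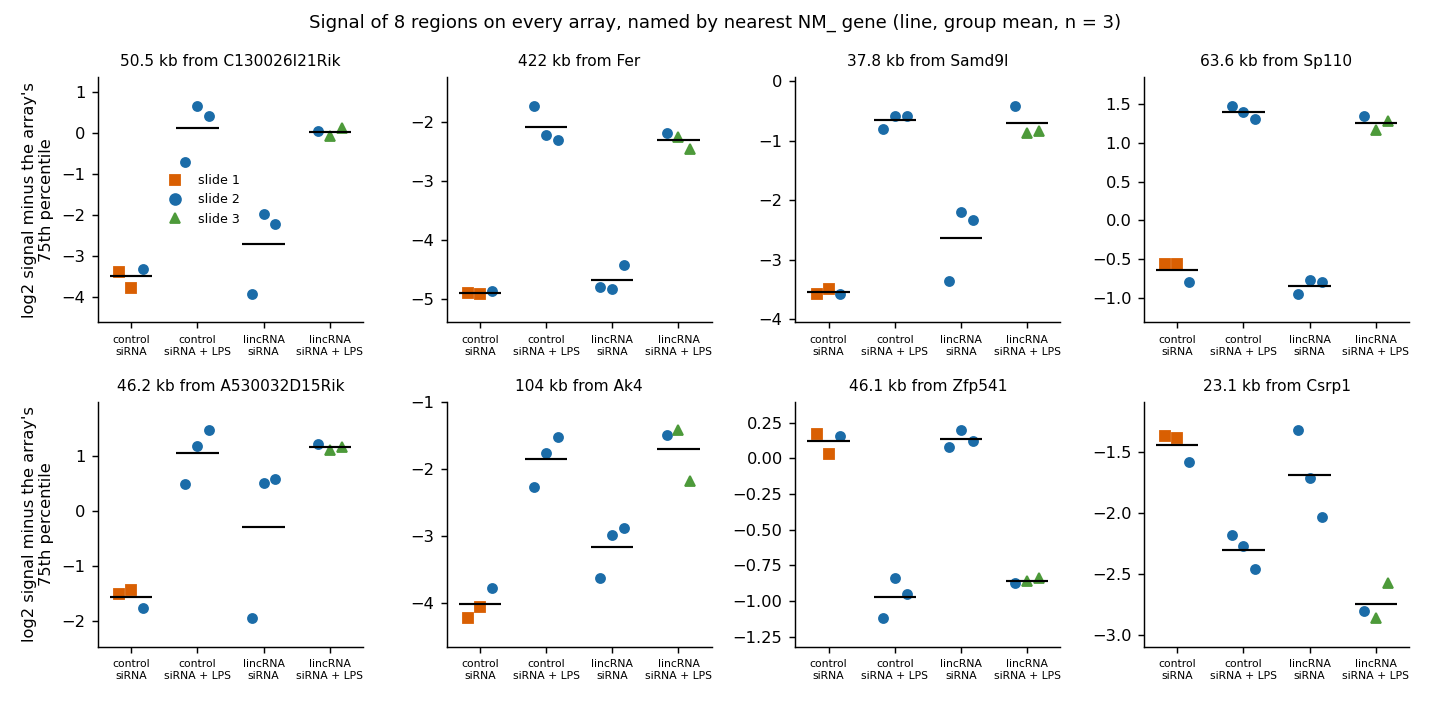
Log2 signal minus the array's 75th percentile on each of the 12 arrays for 8 far regions, the 6 highest and 2 lowest named regions above background on at least 2 arrays of each group, titled by the nearest gene with an NM_ probe and its distance; symbols give the slide and lines the group mean (n = 3). In the first 6 panels the LPS means lie above the others and in the last 2, near Zfp541 and Csrp1, below; single lincRNA-siRNA arrays depart from their group near C130026I21Rik, Samd9l and A530032D15Rik.

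Regions that passed lay together in places. Counting regions less than 500 kb apart as 1 locus, the 56 regions fell into 44 loci, and 7 loci with several held 19 of them. Chromosome 1 held 13 of the 56, 12 of them higher, a count not set against the number of regions tested there. Whether the regions that passed lay closer together than the tested regions do was not tested. The densest stretch was chr1:84961943-85305390, 343 kb long, where 5 of 8 tested regions rose, by 0.79 to 3.18. Its coding neighbours A530032D15Rik (2.06), Gm7609 (2.85) and C130026I21Rik (1.30) also rose, all at an adjusted p under 0.05, and Slc16a14, a transporter gene on its other side, gave 0.13 (adjusted p = 0.872).

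In this stretch, chr1:84961943-84962737_F read -6.37, -6.12 and -5.71 with control siRNA, below background on all 3 arrays, and -4.02, -2.66 and -2.76 with LPS, at least 2.89-fold higher (adjusted p = 0.0126). With the lincRNA siRNA it read -6.22, -4.09 and -4.42 without and -2.85, -3.27 and -2.92 with LPS, a change of 1.90 (adjusted p = 0.16). It entered the test through LPS groups only. The averaged value of 2.41 ± 0.38 (adjusted p = 0.00354), which includes the unmeasured group, did not pass under the slide block (2.31, adjusted p = 0.12). The features most like it were BB157357 (r = 0.99), Csprs (r = 0.988) and ENSMUST00000107229 (r = 0.988), which changed by 2.25, 2.54 and 1.02.

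Also there, chr1:85036677-85038530_R read -1.51, -1.43 and -1.76 with control siRNA and 0.48, 1.18 and 1.47 with LPS. Under the lincRNA siRNA it read -1.95, 0.51 and 0.57 without LPS and 1.21, 1.11 and 1.16 with it. Its lincRNA-siRNA arrays 2 and 3 lay inside the range of the control-siRNA arrays with LPS, while array 1 lay with the arrays of control siRNA alone. The averaged change was 2.03 ± 0.40 (adjusted p = 0.0131) and did not pass under the block (2.15, adjusted p = 0.196). Such a split, with lincRNA-siRNA arrays 2 and 3 both at least 1 log2 unit above array 1, was seen in 5 of the 46 regions that rose (10.9%). It was less frequent over the 1807 tested regions (55, or 3.05%) and over the 23890 features (576, or 2.41%). Apart from the 4 regions near C130026I21Rik, Slc16a14, A530032D15Rik and Samd9l, the 5 included chr1:152001112-152012796_R. What sets array 1 apart was not tested.

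The other 2 regions of the stretch were steadier. The chr1:85117750-85129200_F region, 32.5 kb from A530032D15Rik, read 0.50, 0.40 and 0.46 with control siRNA and 1.95, 1.95 and 2.00 with LPS, then 0.36, 0.63 and 0.70 with the lincRNA siRNA and 1.89, 1.91 and 1.66 with LPS. Its change was 1.38 (adjusted p = 6.58e-06), it passed under the slide block (1.41, adjusted p = 0.00136), and the other strand, chr1:85117750-85129200_R, did not pass. The chr1:85156338-85167730_R region, 41.6 kb from Gm7609, rose by 0.79 (adjusted p = 5.32e-05).

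Further along, 3 of the 6 tested members of a run at chr1:87343550-87452625 (109.1 kb) rose. The brightest kept probes of the other members changed by 0.03 to 0.31. A second kept probe in 1 of those, chr1:87412059-87419385_F, gave 1.11 (adjusted p = 0.0144 in limma with every probe by itself). Besides the region near Sp110, the members that rose were both strands of chr1:87343550-87362900, the only one of 355 regions with both strands tested in which both passed. Its F strand read 0.60, 0.49 and 0.74 with control siRNA and 2.18, 2.20 and 2.18 with LPS, and 0.68, 0.82 and 0.99 with the lincRNA siRNA and 2.09, 2.24 and 1.84 with LPS. That is a change of 1.40 ± 0.09 (adjusted p = 1.2e-05), although its second kept probe gave 0.39. The R strand changed by 0.91 (adjusted p = 0.0125) and did not pass under the block (0.62, adjusted p = 0.0994). The F probe is the seventh sequence above: it shares 37 bases with the probe of chr1:85117750-85129200_F, which lies in the other stretch, and whether the probes capture RNA from one place or from both was not tested.

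On chromosome 4, chr4:101010948-101032148_R lies 104 kb from Ak4, a mitochondrial adenylate kinase that gave -0.02 (adjusted p = 0.866). It read -4.23, -4.06 and -3.77 with control siRNA and -2.27, -1.76 and -1.51 with LPS. Its lincRNA-siRNA arrays read -3.62, -2.98 and -2.88 without and -1.49, -1.41 and -2.17 with LPS. The LPS arrays were all higher, and the averaged change was 1.82 ± 0.20 (3.54-fold, adjusted p = 0.000359; 1.80 and 0.0217 under the block). Its second kept probe gave only 0.35, and the opposite strand -0.07 (adjusted p = 0.611).

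Near Tnc, an extracellular matrix glycoprotein whose probe was above background on 0 arrays, 2 regions within a span of 74.4 kb both rose. At chr4:63736566-63744848_R the values were -6.38, -5.39 and -5.29 with control siRNA and -4.21, -3.40 and -3.27 with LPS, and -5.04, -4.51 and -4.40 with the lincRNA siRNA against -3.39, -2.94 and -3.13 with LPS. All 3 probes rose, by 1.78 to 1.96, and the region, which entered the test through LPS groups only, gave 1.78 ± 0.24 (adjusted p = 0.00137), which the block brought to 1.46 (adjusted p = 0.0902). The neighbour chr4:63810346-63810958_F changed by 1.61 (adjusted p = 0.000418).

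The best covered region that rose was chr16:23992037-24001037_F, 26.8 kb from Bcl6, a transcriptional repressor that itself gave -0.27 (adjusted p = 0.296). It read -4.75, -5.27 and -4.28 with control siRNA and -2.96, -3.00 and -3.05 with LPS. The lincRNA-siRNA arrays read -4.45, -4.46 and -4.39 without and -3.45, -3.76 and -3.75 with LPS. The groups did not overlap under either siRNA, and the rise was larger under control siRNA (1.76, adjusted p = 0.00103) than under the lincRNA siRNA (0.78, adjusted p = 0.131), but the difference did not pass (interaction -0.98 ± 0.29, adjusted p = 0.891). All 6 kept probes were positive, from 1.01 to 1.45, and 4 of them passed on their own. The averaged change was 1.27 ± 0.15 (adjusted p = 0.000515; 1.13 and 0.00507 under the block), and the other strand gave -0.19 (adjusted p = 0.411). The overlapping chr16:23989160-23992539_F also rose (1.40, adjusted p = 0.0236), while chr16:24122784-24289922_R, 158 kb from Bcl6, fell (-0.53, adjusted p = 0.044).

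**Figure D5:**
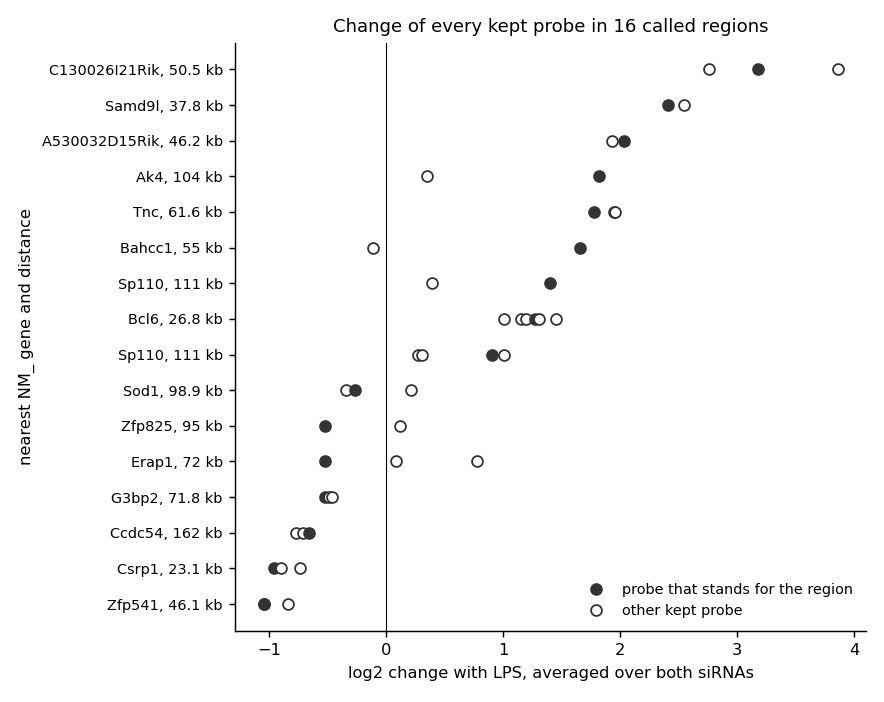
Log2 change with LPS, averaged over siRNAs, of every kept probe in the 16 named regions that passed an LPS test and kept more than 1 probe; rows give the nearest gene and its distance. Probes lie close together near Tnc, Bcl6 and Zfp541, and share a direction but not a size near C130026I21Rik (2.76 to 3.86). They differ near Ak4, Bahcc1, Zfp825, Erap1 and Sod1 and in the F strand 111 kb from Sp110 (0.39 and 1.40).

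Some coding neighbours rose too. Of the 46 regions that rose, 35 had a nearest NM_ probe that was itself tested, and 13 of these probes rose (37.1%) and 1 fell. Among the regions that did not pass, 97 of 1260 nearest probes rose (7.7%), and over all tested regions 110 of 1303 (8.44%). Several regions share a neighbour, so these are not independent. The percentage of regions that rose was 2.72% at 20 to 50 kb, 2.15% at 50 to 100 kb, 2.62% at 100 to 200 kb and 2.88% beyond 200 kb. Chosen after their values were seen, chr1:152001112-152012796_R lies 46.3 kb from Ptgs2, the inducible cyclooxygenase, which rose by 2.40, and itself changed by 1.22 (adjusted p = 0.00942). Likewise chr15:79795261-79796945_R lies 29.4 kb from the growth factor gene Pdgfb (1.77) and changed by 1.71 (adjusted p = 0.0115), and chr8:96983590-96994419_F lies 36.1 kb from Nlrc5, an activator of MHC class I genes whose nearest probe gave 0.78 (adjusted p = 0.00574), and changed by 0.45 (adjusted p = 0.0297).

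Of the 38 regions that passed with either siRNA, 23 passed with control siRNA only and 2 with the lincRNA siRNA only, which by itself does not show that the siRNAs differed. At chr5:31883451-31884082_F, 27.1 kb from Slc4a1ap, the control-siRNA values of -3.75, -5.52 and -2.60 were widely spread and those with LPS were -1.69, -1.44 and -1.54. The lincRNA-siRNA values were -2.60, -2.63 and -2.82 without and -1.92, -1.86 and -1.88 with LPS. The change was 2.40 with control siRNA (adjusted p = 0.0362) and 0.80 with the lincRNA siRNA (adjusted p = 0.737), and it was 1.05 for control siRNA under the block (adjusted p = 0.727). The opposite order was seen at chr11:120097758-120098581_F, 55 kb from Bahcc1, which read -1.59, -2.92 and -1.68 with control siRNA and -1.68, -1.03 and -1.13 with LPS. There the lincRNA-siRNA values were -3.37, -4.16 and -3.90 without and -1.32, -0.44 and -2.05 with LPS. Its change was 2.54 with the lincRNA siRNA (adjusted p = 0.021) and 0.79 with control siRNA (adjusted p = 0.309), its second probe gave -0.11 on average, and the interaction of 1.76 did not pass (adjusted p = 0.891). The region chr7:50403100-50418175_F, 27.6 kb from Zfp936, was at least 2.86-fold higher with LPS under the lincRNA siRNA (adjusted p = 0.0448) and gave 0.80 under control siRNA (adjusted p = 0.334).

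Among the 10 regions that fell, chr7:16633756-16634410_F was the most even. It is 0.655 kb long and lies 46.1 kb from Zfp541. It read 0.17, 0.03 and 0.16 with control siRNA and -1.12, -0.84 and -0.95 with LPS. Under the lincRNA siRNA it read 0.08, 0.20 and 0.12 without and -0.87, -0.86 and -0.84 with LPS. No array of one kind came near the other kind. The change was -1.04 ± 0.07 (2.06-fold lower, adjusted p = 1.38e-05), -1.09 with control siRNA and -0.99 with the lincRNA siRNA, and -1.07 under the slide block (adjusted p = 0.00221). Its 3 probes gave -1.04 to -0.84. It was the only lowered region that passed under the block.

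At chr1:137503023-137625604_R, 23.1 kb from Csrp1, a LIM domain protein, the values were -1.37, -1.39 and -1.58 with control siRNA and -2.18, -2.27 and -2.46 with LPS. The lincRNA-siRNA values were -1.32, -1.71 and -2.03 without and -2.80, -2.86 and -2.57 with LPS. The 6 LPS arrays were all lower, and the change was -0.96 ± 0.12 (adjusted p = 0.00112; -0.92 and 0.0543 under the block). All 3 probes fell, by -0.96 to -0.73, and so did the probe of ENSMUST00000112103 inside it on the same strand (-0.95, adjusted p = 0.00318), which shares 56 bases with the last sequence above. On the same strand, chr1:137482591-137625604_R covers this region whole but is represented by another probe, and it gave 0.30 (adjusted p = 0.0905).

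The lowered regions also included chr10:69679644-69682458_F, 24.3 kb from Ccdc6, with the largest fall (-1.61, adjusted p = 0.012), although neither siRNA alone passed. Its probe entered the test through groups without LPS only, so its test for a fall is not independent of that filter. Smaller falls were seen at chr16:50752452-50753589_F (-0.66, adjusted p = 0.0328, all 3 probes negative), at chr5:92556322-92558910_F (-0.52, adjusted p = 0.0241), whose probe shares 59 bases with that of the clone D430040L24Rik inside it (-0.59), which is thus no separate measurement, and at chr16:90038086-90127636_F (-0.26, adjusted p = 0.0371). The other kept probes of this last region gave -0.34 and 0.21. In a run of 7 tested members at chr13:74642700-74756950 (114.3 kb), 2 fell, by 0.52 each, and none rose. The probes of these 2 share a run of 25 bases, so they are not separate observations, and the other kept probes gave 0.12 in the first region and up to 0.78 in the second. Of the 8 lowered regions with a tested coding neighbour, 0 neighbours rose and 0 fell.

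The siRNA against lincRNA-Tnfaip3 changed no far region past the threshold. Without LPS, 0 of 1807 passed in limma (0% of all features), and 298 had an unadjusted p under 0.05 (254 higher, 44 lower), which is 16.5% beside 18.5% of all features (12.6% higher, 5.89% lower). With LPS, 0 passed (0% of all features), and 34 had an unadjusted p under 0.05 (22 higher, 12 lower), beside 4.64% of all features (2.67% higher, 1.97% lower). Averaged over LPS states, 0 passed, against 37 of 23890 features (0.155%; 0.0753% higher, 0.0795% lower), and 209 had an unadjusted p under 0.05 (167 higher, 42 lower), beside 17.3% of all features (11% higher, 6.32% lower). The smallest adjusted p was 0.175, 0.905 and 0.0867 in these comparisons and 0.891 for the interaction. Without LPS, where the control group holds the slide 1 arrays, higher values outnumbered lower ones, as they did over all features. Under the slide block the median change of the far regions was 0.04, down from 0.19, and that of all features -0.02, down from 0.07. There, 28 far regions had an unadjusted p under 0.05 in limma. With LPS the block moved that count the other way, from 34 to 103. The share of all features at that unadjusted p was not counted under the block, so these counts show nothing particular to the far regions. What gave the excess was not tested. The counts of 0 became 219 without LPS, 120 averaged and 35 for the interaction when control-siRNA array 3 was left out, which leaves only slide 1 arrays with control siRNA alone; without lincRNA-siRNA array 1 they were 2, 4 and 0. Without control-siRNA array 3 the members' shares were 12.1%, 6.64% and 1.94%, beside 10.9%, 6.8% and 1.5% of all features. For the 2 and the 4 without lincRNA-siRNA array 1 they were 0.111% and 0.221%, beside 0.557% and 0.896% of all features. Leaving out lincRNA-siRNA array 3 also gave 2 without LPS (0.111%, beside 0.0335% of all features).

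The far region with the smallest p for the averaged siRNA effect was chr9:122481619-122588714_F, at 0.69 ± 0.13 (unadjusted p = 0.000352, adjusted p = 0.0867). It read -5.00, -4.86 and -4.47 with control siRNA and -4.44, -4.21 and -4.68 with LPS, against -3.88, -4.10 and -4.21 with the lincRNA siRNA and -4.03, -3.70 and -3.61 with LPS. The lincRNA-siRNA arrays lay above the control-siRNA arrays except that the lowest of them met the highest control-siRNA array at -4.21, and the block brought the difference to 0.41 (adjusted p = 0.58). Next were chr1:137482591-137625604_R (0.50, adjusted p = 0.0902) and chr16:8748982-8757165_R (0.50, adjusted p = 0.119).

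Of the lower ones, chr7:99878349-99882258_R, 80.9 kb from Pcf11, read -3.46, -3.55 and -3.43 with control siRNA and -3.44, -3.71 and -2.01 with LPS. With the lincRNA siRNA it read -5.38, -4.25 and -5.24 without and -4.81, -5.01 and -3.73 with LPS. The lincRNA-siRNA arrays were all lower, clearly so without LPS and only just with LPS, and the averaged difference was -1.47 ± 0.34 (unadjusted p = 0.0017, adjusted p = 0.136; -1.64 and 0.537 under the block). The others were chr10:94133769-94151321_R (unadjusted p = 0.00175), which was above background on 0 of the 6 lincRNA-siRNA arrays, and chr19:53517903-53540753_F (-0.25, unadjusted p = 0.00294). Without LPS, the other kept probes of the chr19 region gave siRNA differences of -0.05, 0.22, 0.53, 0.54 and 0.86, most of them upwards. The chr10 region entered the test through the control-siRNA group without LPS only, so its test for a lower value is not independent of that filter.

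With LPS alone the 3 smallest p-values among higher regions were at chr12:85210777-85262127_R (0.38, unadjusted p = 0.00317), chr9:122481619-122588714_F (0.67, unadjusted p = 0.00464) and chr14:47978277-47985238_F (0.67, unadjusted p = 0.00617) in limma. Among lower ones they were at the region near Bcl6 (-0.65, unadjusted p = 0.0109), chr7:99878349-99882258_R (-1.46, unadjusted p = 0.0134) and chr8:67349275-67360000_F (-0.65, unadjusted p = 0.0141). Without LPS the higher ones were chr6:86524425-86524935_F (0.93, adjusted p = 0.175), chr1:137482591-137625604_R (0.66, unadjusted p = 0.000671) and chr8:15580278-15583962_R (unadjusted p = 0.000809), which was above background on 0 control-siRNA arrays and at least 1.04-fold higher. The lower ones were chr10:94133769-94151321_R (unadjusted p = 0.000787), above background on 0 lincRNA-siRNA arrays and at least 2.61-fold lower, chr16:90038086-90127636_F (-0.40) and chr19:53517903-53540753_F (-0.36). Other kept probes gave -0.36 and 0.55 in the chr16 region, and -0.05 to 0.86 in the chr19 region. As said above, the chr10 region passed the filter only through the group where it was high. The value at chr6:86524425-86524935_F rests on 2 control-siRNA arrays, both at -4.27 and both on slide 1, because the spot on array 3 carried an outlier flag and was left out. In the authors' deposited value table, which keeps that spot, the difference was -1.93. For the interaction the smallest p-values belonged to chr6:86524425-86524935_F (-0.95), chr8:15580278-15583962_R and chr15:58985008-58985429_F (-1.85), and, upwards, chr10:60473030-60535340_F (0.81), chr2:83540813-83541273_R and the region near Bahcc1 (1.76), all at an adjusted p of 0.891. The chr15 region changed with LPS by 1.75 under control siRNA and -0.10 under the lincRNA siRNA. Its probe was above background on 5 arrays, so it can have entered the test through 1 group only. Its interaction may therefore not be independent of that filter. No size is given for the chr8 and chr2 regions, each of which was above background on 0 arrays of 1 group. Other kept probes of chr10:60473030-60535340_F changed with LPS by 0.98, 0.60 and 0.47 under control siRNA. Under the lincRNA siRNA they gave 0.17, 0.28 and 0.11, the opposite order to the chosen probe. The remaining ones gave 0.53 and 0.06 under control siRNA, and 1.28 and -0.01 under the lincRNA siRNA.

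At the 20 kb limit itself, the members just inside were chr8:42462791-42466106_R (20100 bases from Frg1, LPS change 0.34) and chr13:21264306-21264482_R (20172 bases from Trim27), which did not pass the filter. The regions just outside were the strands of chr5:22801058-22939737 (19994 bases from Lhfpl3), at -0.06 for F and 0.85 for R.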

How the data were processed

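Each array's scanner file was deposited as Agilent Feature Extraction output (version 10.7.1.1 per the file headers), whose processed intensity is background-subtracted within the array; an aligner is not involved, and mm9 is the build of the probe positions per the file headers. The authors' deposited value table was matched to the arrays by rank and read as log2 values with a common column median of 4.76; its normalization is not stated in the labels, and the table was an alternative.

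From the intensity values, log2 minus the array's 75th percentile was computed, outlier spots were left out (104 to 258 per array), spots of a probe were averaged, and 33132 probes above background on all 3 arrays of a group were kept. The brightest kept probe stood for each of 23890 features. A model with 4 group means (8 residual degrees of freedom) was fitted with limma 3.58.1 in R 4.3.3, with Benjamini-Hochberg adjustment over all features and a threshold of 0.05; fold bounds use the lowest signal above background. Version 1.17.8 of data.table read the files; Python 3.11.15 with matplotlib 3.10.9 made the plots. The fit was tested on simulated data. The number of arrays limits the precision.

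Named regions were the 8 highest and 6 lowest (4 and 4 outside the averaged and control-siRNA LPS tests) that passed with no overlap of arrays, 3 by smallest p where fewer passed, detection switches, runs with gaps under 50 kb, and the pair on each side of 20 kb. Members and lists were chosen with earlier results of these data known. The closing section gives the alternatives: background correction, scaling, filter, slide, replicate block, probe choice, distance rule and arrays left out.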

Additional observations from a re-analysis of the deposited data

How the results depend on the processing

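None of the 34 named LPS changes that passed the test reversed under the alternatives run on them (not the unfiltered set, every probe by itself or the distance rules; 21 of the 34 had a value with only probes above background on all 12 arrays). Of the 34, 33 passed under quantile normalization and in the authors' deposited value table, 27 with normexp background correction, 12 with the slide as a block, 5 on slide 2 alone and 19 without the slide 1 arrays, an alternative chosen after seeing their low detection. The 36 far regions of the control-siRNA LPS comparison became 23 with normexp, 10 with the slide block, 2 on slide 2, 62 with every probe tested by itself, 12 without the slide 1 arrays, 19 beyond 50 kb and 19 when all other non-lincRNA probes counted for the distance. With normexp, 1003 of all 23890 features passed in this comparison, against 1231 before. With every probe by itself, 1482 of 33132 probes passed here and 2392 in the averaged comparison below. A region counted there if any of its probes passed, so regions with several probes had more chances. The 2 distance rules also shrink the set itself, here and below. Beyond 50 kb 1071 regions were tested, and away from all other probes 954, against 1807, so their counts are not on the same footing. The slide block and slide 2 alone give the same changes, so they are not separate checks. For the 36, leaving out 1 array gave 18 (without control-siRNA array 2, or array 3 of control siRNA with LPS) to 296 (without control-siRNA array 3, which leaves slide 1 alone in that group). The 15 of the lincRNA-siRNA comparison became 8 with the slide block, 2 on slide 2, 8 beyond 50 kb and 7 away from all other probes, and 11 (without lincRNA-siRNA array 2 with LPS) to 33 (without lincRNA-siRNA array 3) with 1 array left out. The 56 of the averaged comparison became 16 with the slide block, 14 on slide 2, 87 with every probe, 23 without the slide 1 arrays, 33 beyond 50 kb and 28 away from all other probes, and 33 (without array 3 of control siRNA with LPS) to 218 (without control-siRNA array 3). The siRNA counts of 0 ranged over 0 to 219 without LPS, 0 to 0 with LPS, 0 to 120 averaged and 0 to 35 for the interaction. The highest of those above 0 came each time without control-siRNA array 3. Otherwise they reached at most 2 without LPS (without lincRNA-siRNA array 1 or array 3) and 4 averaged (without lincRNA-siRNA array 1). The cause was not tested. The median interaction over far regions was -0.19 but 0.02 with normexp.

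The detection differences were 0.38 (LPS, control siRNA) and -2.08 (siRNA without LPS) on slide 2, and with 1 array left out ran from 6.86 to 16.5, -0.03 to 3.53, 4.40 to 14.1 and -2.49 to 1.07 points in the order of the text. At chr6:86524425-86524935_F the authors' value table, which keeps the flagged spot, reversed the siRNA difference to -1.93 and the interaction to 1.92. Arrays with the same replicate number correlated at -0.299 to 0.469, and those with different numbers at -0.465 to 0.469. These ranges do not settle whether the replicates are paired. With the replicate block, 56, 15 and 74 far regions passed for LPS with control siRNA, with the lincRNA siRNA and averaged. Those were 3.1%, 0.83% and 4.1%, beside 6.59%, 1.62% and 9.59% of all features. For each siRNA comparison 0 passed.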
